A study of Mus musculus with 9 samples.

Results

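The secretory program of salivary acinar cells was examined through 6 genes, chosen by name among the 23366 entries of the gene count tables: Amy1, Bhlha15, Xbp1, Creb3l1, Spdef and Lpo. RNA-seq had been performed on mSGc, a spontaneously immortalized epithelial line grown as a monolayer from the submandibular glands of 12-week-old male C57BL/6 mice, and on IMOK, immortalised oral keratinocytes of the same strain. The mSGc libraries were of passages P2, P4, P10 and P25 in progenitor medium and of P10 and P25 in differentiating medium, with 1 library for each of these 6 conditions. IMOK was measured in 3 replicate libraries, labelled as early passage and grown in IMOK media. The study describes a serum-free medium with EGF, FGF, N2 supplement, insulin and dexamethasone and a serum-containing medium with retinoic acid, hydrocortisone, triiodothyronine and EGF for mSGc, taken here to be the progenitor and the differentiating medium. No sample was a salivary gland or a sorted acinar cell, each line stood for 1 culture origin, and the protocol text of the IMOK libraries, like that of mSGc, names submandibular gland cells as the source of the RNA. Cell line, growth medium and experiment changed together between mSGc and IMOK and cannot be told apart.

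Acinar cells make saliva proteins in bulk and store them in secretory granules until a nerve signal releases them. This demands a large endoplasmic reticulum, which is built and tuned by transcription factors, while the cargo itself (amylase in serous cells, mucins in mucous cells) marks the specialised cell. BHLHA15, also called MIST1, is the basic helix-loop-helix factor that scales up granules and secretory organelles. XBP1 is the factor whose messenger RNA is spliced by the stress sensor IRE1 and which then switches on chaperones, translocation channels and degradation factors of the endoplasmic reticulum. CREB3L1, also called OASIS, is a factor held in the endoplasmic reticulum membrane until proteases of the Golgi release it. SPDEF is an ETS factor of mucous and goblet cells, AMY1 is salivary alpha-amylase, and LPO is lactoperoxidase, the antimicrobial peroxidase of saliva and milk.

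Library totals ran from 6237884 to 18444963 counts, so that 3 counts, used here as the limit of detection, corresponded to 0.163 to 0.481 counts-per-million (CPM). Levels are given in transcripts-per-million (TPM), which divide each gene's counts by its length in the tables before scaling to the library. IMOK replicate 1 stood apart from the other libraries: among genes with a mean of at least 1 TPM, 31.5% had their highest level of the 9 libraries there, against 9.22% in IMOK replicate 2, 13.3% in IMOK replicate 3 and 3.50% to 12.2% in the mSGc libraries. The chi-square per degree of freedom between the counts of IMOK replicates 2 and 3 was 21.3, and those of replicate 1 against replicates 2 and 3 were 150 and 180, so no IMOK library repeated another within sampling noise. Results that rest on IMOK are therefore given with and without replicate 1. Nothing in the labels says whether the IMOK replicates were separate cultures, so the p-values measure the spread between these libraries only, which may be technical.

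Amylase genes are near copies of each other, so the sequence that sets Amy1 apart is shown first. The study's quantitative PCR primers for Amy1 are printed here with the bases that differ from the pancreatic amylase gene Amy2a5 in capitals, beside the Amy2a5 letters at the place of the reverse primer, and the Bhlha15 primers follow in lower case.
Amy1 forward: gtggcgctgggttgatattgc
Amy1 reverse: gaAgggCtGtgGactacGaTg
Amy2a5 at the reverse primer: gaTgggTtAtgAactacAaCg
Bhlha15 forward: ggctgtggctgactactacaac
Bhlha15 reverse: cagggcaagtctctccgtgtac
In the GENCODE M1 transcripts (build NCBIM37, the same assembly as mm9), the forward Amy1 primer matched Amy1 and 5 Amy2a genes exactly, whereas the reverse primer matched Amy1 alone and differed from Amy2a5 at 6 of its 21 bases. The product spanned 111 bases of the Amy1 transcript, and that of Bhlha15 spanned 113 bases. The coding sequences of Amy1 and Amy2a5 were 89.4% identical. Of the 1722 windows of 50 bases in the Amy1 transcript, 34 (1.97%) also occurred in an Amy2 transcript, and none of the 1672 windows of 100 bases did. Reads counted for Amy1 could therefore be placed by sequence along most of its length, although how the authors treated reads with several matches is not given in the sources used here.

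Amy1 lies at chr3:113258870-113280668 (mm9, minus strand) and was read mainly in a pair of the IMOK libraries. In mSGc in progenitor medium its level was 0.415 TPM at P2 (4 counts), 3.06 TPM at P4 (50 counts), 1.55 TPM at P10 (13 counts) and 0 at P25 (0 counts, where 3 counts would be 0.194 TPM). In differentiating medium it was 3.38 TPM at P10 (39 counts) and 0 at P25 (0 counts, where 3 counts would be 0.524 TPM). In IMOK it was 0.129 TPM in replicate 1 (2 counts), 22.1 TPM in replicate 2 (347 counts) and 24.9 TPM in replicate 3 (364 counts). By counting error, P4 (2.17 to 3.86 CPM, 95% Poisson interval) and P10 in differentiating medium (2.103 to 4.04 CPM) were not distinguishable, nor were IMOK replicates 2 (17.2 to 21.3 CPM) and 3 (19.4 to 23.9 CPM). Both P25 libraries and IMOK replicate 1 were thus at or below 3 counts, IMOK replicates 2 and 3 lay above every mSGc library, and the groups overlapped. The pancreatic entries Amy2a2, Amy2a3, Amy2a4 and Amy2a5 had 0 counts in all 9 libraries, but their exons cover one another in the annotation, which can leave such reads uncounted. Amy2b, a single-locus entry, had 1 count in IMOK replicate 2, 2 counts in IMOK replicate 3 and 0 elsewhere.

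Bhlha15 (chr5:144951155-144955310, plus strand) was at the limit of detection in most libraries. It had 2 counts at P2, 15 at P4, 1 at P10 and 2 at P25 in progenitor medium, and 0 in both libraries in differentiating medium. In IMOK it had 3, 3 and 5 counts. The P4 library was the highest, at 0.478 TPM, and the next was IMOK replicate 3 at 0.179 TPM. The exact Poisson 95% intervals of these levels, 0.491 to 1.45 CPM and 0.0964 to 0.693 CPM, overlapped; such intervals cover counting error only.

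Xbp1 (chr11:5420644-5425996, plus strand) was the only member that was well read in every library, with 365 to 1855 counts. In progenitor medium its level was 88.2 TPM at P2, 67.8 TPM at P4, 47.8 TPM at P10 and 46.9 TPM at P25, and in differentiating medium it was 64.3 TPM at P10 and 51.7 TPM at P25. In IMOK it was 69.5, 95.8 and 74.7 TPM in replicates 1 to 3. It ranked between the 1909th and the 3276th entry of 23362 by level in each library, and its mean lay at the 89.1th percentile of all entries. The mean was 61.1 ± 15.9 TPM in mSGc (SD, n = 6) and 80.0 ± 13.9 TPM in IMOK (SD, n = 3), and the groups overlapped, because P2 lay above IMOK replicates 1 and 3. Within mSGc, P2 was highest and P4 and P10 in differentiating medium followed. By counting error alone, the intervals of P25 in differentiating medium (52.7 to 64.8 CPM), P10 in progenitor medium (50.8 to 60.7 CPM) and P25 in progenitor medium (54.2 to 61.9 CPM) overlapped one another, so these 3 could not be ordered. Gene counts do not tell the IRE1-spliced form of Xbp1 from the unspliced one.

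Creb3l1 (chr2:91822485-91864327, minus strand) was read in the earlier mSGc libraries in progenitor medium. It had 15 counts at P2 (1.25 TPM), 8 at P4 (0.392 TPM), 25 at P10 (2.39 TPM) and 2 at P25 (0.104 TPM). In differentiating medium it had 1 count at P10 and 2 at P25, and in IMOK 5, 0 and 1 counts. At P10 the level in progenitor medium, 2.81 CPM (95% Poisson interval 1.82 to 4.15), lay above that in differentiating medium, 0.0758 CPM (0.00192 to 0.423), beyond counting error, but each was a single library.

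Spdef and Lpo were near 0 throughout. Spdef (chr17:27851392-27865896, minus strand) had 8 counts at P10 in differentiating medium (0.693 TPM), 3 at P4, 1 each in IMOK replicates 1 and 2, and 0 in the other 5 libraries. Lpo (chr11:87619930-87639616, minus strand) had 16 counts at P4 (0.609 TPM), 7 and 4 in IMOK replicates 2 and 3, 4 at P10 in differentiating medium, 1 at P10 in progenitor medium and 0 in the other 4 libraries. The highest library was thus P4 for Bhlha15 and Lpo, P10 in differentiating medium for Spdef, P10 in progenitor medium for Creb3l1, and an IMOK replicate for Amy1 and Xbp1. In bulk RNA, fewer cells of a type and less RNA per cell cannot be told apart.

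**Figure D1:**
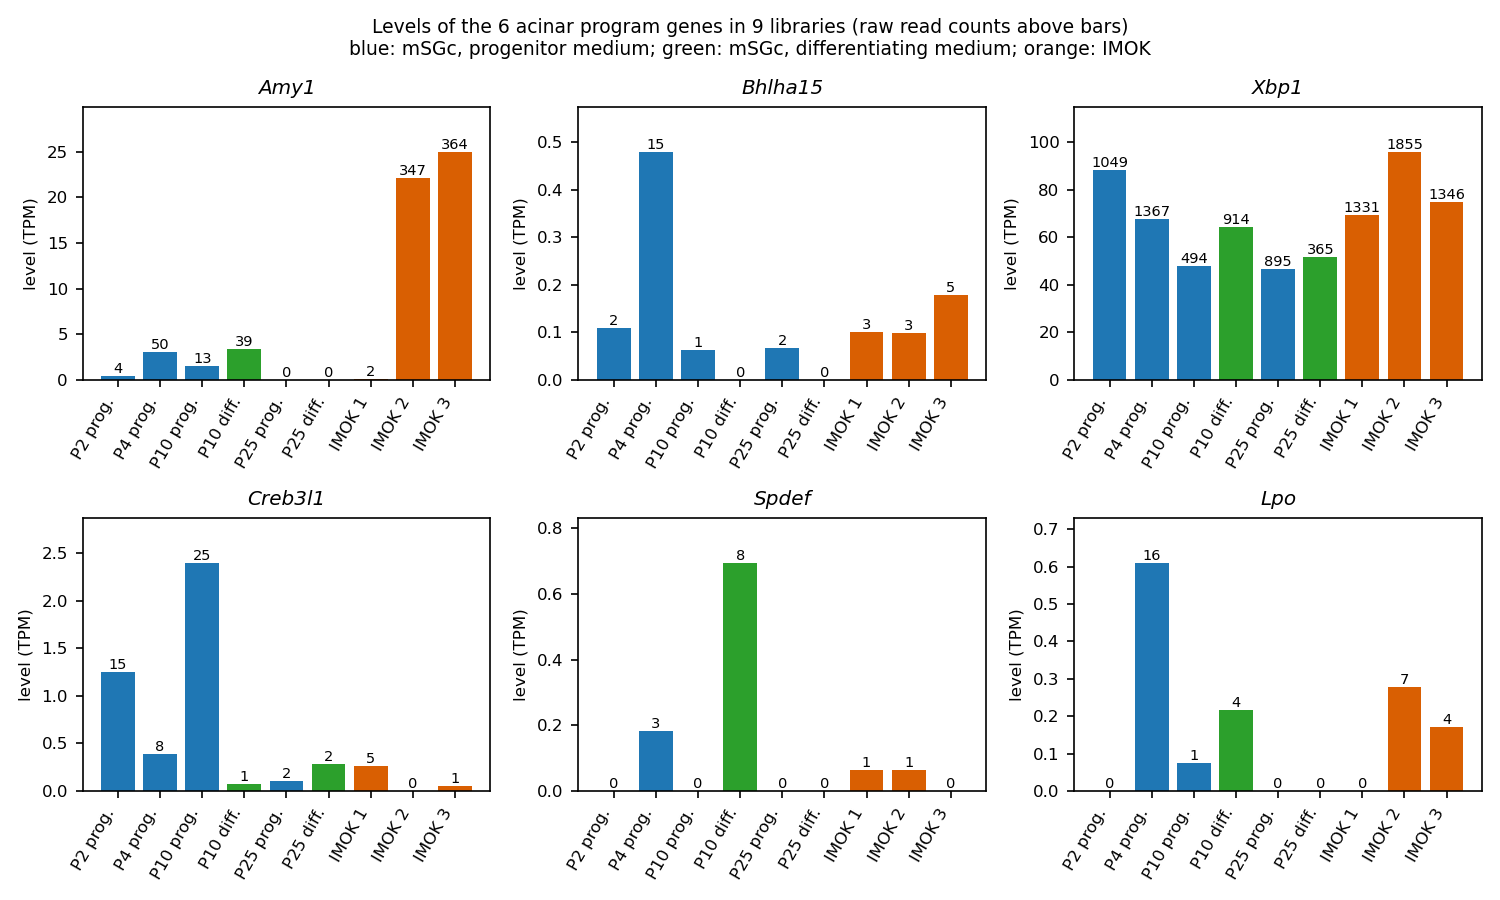
Bars give the level (TPM, axis from 0, a separate scale for each gene) of the 6 genes in the 6 mSGc libraries and the 3 IMOK replicates, with the raw read count above each bar. Xbp1 stands between 46.9 and 95.8 TPM in all 9 libraries, Amy1 reaches 22.1 and 24.9 TPM in IMOK replicates 2 and 3, and the other 4 genes have at most 25 counts in any library.

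The question whether the salivary line differed from keratinocytes in these genes was addressed by comparing all 6 mSGc libraries with the 3 IMOK libraries (edgeR quasi-likelihood test, adjusted p over all 12882 genes tested). The 6 mSGc libraries are passages and media of 1 line, pooled here, and are not replicates of 1 condition. Their spread therefore includes passage and medium. Only Amy1 and Xbp1 passed the filter on low counts, and 0 of these 2 were called at an adjusted p under 0.05, where 14.9% of all genes tested were called. At an unadjusted p under 0.05 there was 1, Amy1, beside 30.4% of all genes, and DESeq2 called 0 of the 5 members it tested. Amy1 was lower in mSGc by a log2 fold change of -3.32 (SE 1.35, adjusted p = 0.126 by edgeR). Without IMOK replicate 1 the change was -3.90 (SE 1.12, adjusted p = 0.0474 by edgeR), which passed the threshold. In that fit 14.7% of all genes were called in either direction. Over the 15 alternatives the adjusted p of Amy1 ranged from 0.0474 to 0.464. For Xbp1 the log2 fold change was -0.19 (SE 0.21, adjusted p = 0.603 by edgeR), and over the alternatives it ranged from -0.38 to -0.03. The other 4 members did not pass the filter with all 9 libraries and were fitted by edgeR with no filter on low counts. There Creb3l1 had a log2 fold change of 3.0 (SE 1.30, unadjusted p = 0.0404, adjusted p = 0.177 by edgeR), and those of Bhlha15, Spdef and Lpo had adjusted p-values of 0.886, 0.466 and 0.907. For Creb3l1, DESeq2 gave 3.10 (SE 1.36, adjusted p = 0.0880). Creb3l1 passed the filter once 1 IMOK replicate was left out, and edgeR then gave 4.51 without replicate 1 (adjusted p = 0.119), 2.41 without replicate 2 (adjusted p = 0.372) and 2.72 without replicate 3 (adjusted p = 0.335).

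The study compared its line with IMOK at P10 and states that IMOK was of that passage number too. The P10 libraries in both media were therefore also set against IMOK (2 and 3 libraries, 13014 genes). The comparison above, which pools P2 to P25, was not matched for passage. The 2 P10 libraries differ in medium, which enters their spread, and are not replicates of 1 condition. Again 0 of the 2 members tested were called, with 4.20% of all genes called, and none had an unadjusted p under 0.05 by edgeR or DESeq2 (24.9% of all genes had by edgeR). The log2 fold change of Amy1 was -2.59 (SE 1.73, adjusted p = 0.398 by edgeR). Without IMOK replicate 1 it was -3.15 (SE 0.43, adjusted p = 0.0119 by edgeR), where 27.1% of all genes were called. That of Xbp1 was -0.36 (SE 0.26, adjusted p = 0.429 by edgeR).

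Effects of passage and of medium were estimated in a joint model of the 6 mSGc libraries (12449 genes), in which P2 and P4 were present in progenitor medium only. Of the 3 members tested, which included Creb3l1, 0 were called for passage (0.490% of all genes were, 0.0482% rising and 0.442% falling) and 0 for medium (0.0241% of all genes were, 3 in number). By edgeR none had an unadjusted p under 0.05 for either, where 13.2% of all genes had for passage and 8.17% for medium, and by DESeq2 there were 2 for passage, Amy1 and Xbp1, of which 0 passed after adjustment. Xbp1 had a log2 change of -0.20 per doubling of passage number (SE 0.08, unadjusted p = 0.0520, adjusted p = 0.385 by edgeR), and its difference between differentiating and progenitor medium was 0.05 (SE 0.24, adjusted p = 0.983 by edgeR). Amy1 had -1.22 per doubling (SE 0.86, adjusted p = 0.596 by edgeR), with 4 to 50 counts up to P10 and 0 in both P25 libraries. That estimate was -2.49 without P2 and -0.39 without P25 in progenitor medium. Its medium estimate was 1.49 (SE 1.58, adjusted p = 0.888 by edgeR) and became -4.99 without P10 in differentiating medium, so 1 library set its sign. The only library then left in that medium, P25, had 0 counts of Amy1, so the size of -4.99 is not meaningful. Creb3l1 had -0.12 per doubling (SE 0.55, adjusted p = 0.95 by edgeR), and 0.59 without P25 in progenitor medium. Its medium difference was -2.53 (SE 1.68, adjusted p = 0.799 by edgeR).

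The cargo that amylase travels with was followed in a list of 19 salivary secretory products, Amy1 included. It was prominent in 3 of the 9 libraries. The summed level was 241 TPM at P4, 394 TPM in IMOK replicate 2 and 381 TPM in IMOK replicate 3, against 0.386 TPM in IMOK replicate 1 and 0.558 to 25.5 TPM in the other mSGc libraries. More than 3 counts were found for 11 of the 19 genes at P4, for 9 in each of IMOK replicates 2 and 3, and for 0 in IMOK replicate 1.

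Bpifa2, the parotid secretory protein, had the highest mean level of the list, with 15.8 TPM at P4, 158 and 175 TPM in IMOK replicates 2 and 3, and 0 counts in the other 6 libraries. Smr3a, a submandibular prohormone-like secreted protein, had 3.86 TPM at P4, 71.7 and 81.3 TPM in IMOK replicates 2 and 3, and 0 counts elsewhere. Pip, prolactin-inducible protein, was spread more widely in mSGc, at 13.6 TPM at P2, 59.1 at P4, 18.3 and 21.6 at P10 in progenitor and differentiating medium, and 1.24 and 0.558 at P25. In IMOK, Pip had 0, 39.2 and 31.5 TPM. Among genes picked after their values were seen, Prol1 had 59.99 TPM at P4 and 47.5 and 30.5 TPM in IMOK replicates 2 and 3, and Car6, the secreted carbonic anhydrase of saliva, had 40.6, 42.7 and 28.2 TPM there. The demilune proteins Dcpp1, Dcpp2 and Dcpp3 were highest at P4, with 13.9, 36.3 and 6.39 TPM.

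Of the 19 cargo genes, 7 passed the filter in the comparison of all mSGc with IMOK, and 1, Smr3a, was called lower in mSGc (log2 fold change -5.81, SE 1.68, adjusted p = 0.0437 by edgeR), where 8.31% of all genes were called lower. All 7 estimates were negative, with a median log2 fold change of -1.50 beside 0.00 over all genes. That common sign holds only for genes that passed the filter. Muc19 (25 and 34 counts at P2 and P4, 0 in IMOK), Smgc, Dcpp2 and Dcpp3 were tested only once IMOK replicate 1 was left out. Their log2 fold changes were then 6.41, 4.53, 1.83 and -0.63 (adjusted p from 0.165 to 0.827 by edgeR). Smr3a was not called by DESeq2 (adjusted p = 0.181), by limma voom (adjusted p = 0.334), or by edgeR without any 1 of P2, P10 or P25 in either medium, IMOK replicate 2 or IMOK replicate 3 (adjusted p from 0.0681 to 0.127). Its log2 fold change ranged from -6.37 to -4.58 over the other alternatives, and was -11.24 without both P4 and IMOK replicate 1, where every mSGc library left had 0 counts. Without IMOK replicate 1, 3 of 11 cargo genes tested were called lower, Bpifa2, Amy1 and Smr3a, where 14.7% of all genes were called in either direction. At P10, 0 of 7 cargo genes were called, beside 4.20% of all genes, and 4 had an unadjusted p under 0.05 by edgeR, beside 24.9% of all genes. Without IMOK replicate 1 there were 6 of 7 lower at P10, where 27.1% of all genes were called in either direction. Products of the gland's ducts were read in some of the same libraries: Klk1, a kallikrein of the granular ducts, had 18.1 TPM at P4, 23.3 TPM at P10 in differentiating medium, 6.36 and 3.99 TPM in IMOK replicates 2 and 3, 0.863 TPM at P2 and 0 elsewhere. Egf, a growth factor made by the same ducts, had 16.6 TPM at P4, 1.92, 3.90 and 3.46 TPM in IMOK replicates 1 to 3, and at most 0.457 TPM in the other mSGc libraries. Klk1 and Egf were chosen after their values were seen. The origin of the cargo reads was not tested.

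**Figure D2:**
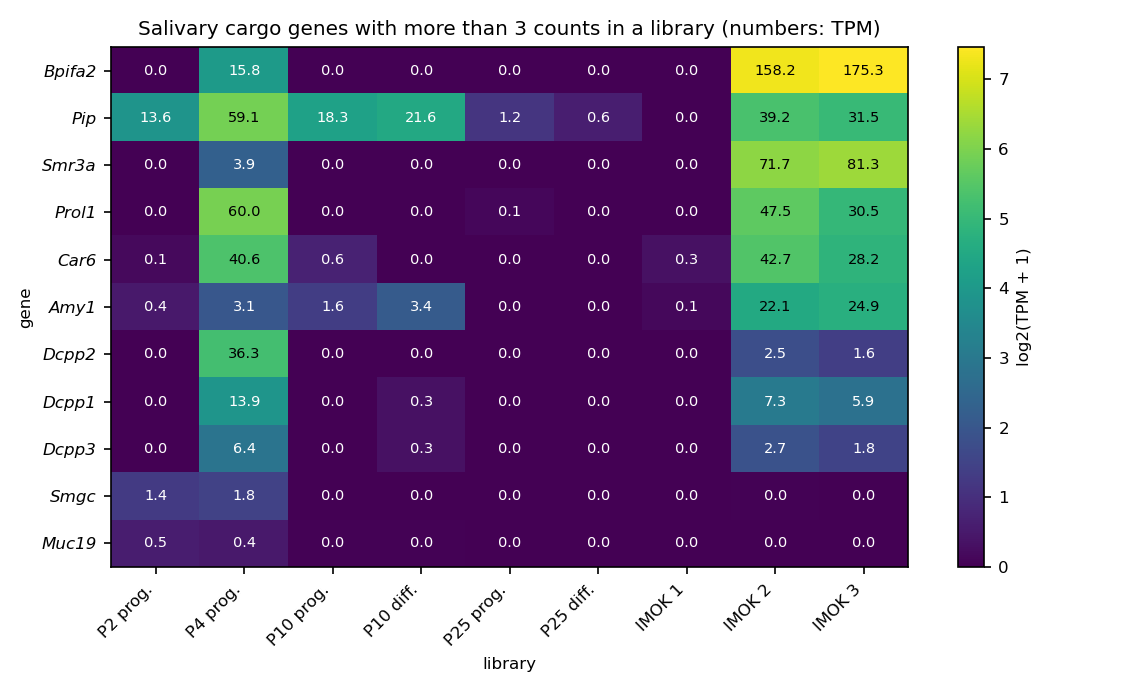
Each cell gives the level (number, TPM, and colour, log2(TPM + 1)) of a salivary cargo gene with more than 3 counts in at least 1 library, by gene (rows) and library (columns). P4 and IMOK replicates 2 and 3 form the filled columns, IMOK replicate 1 and the P25 libraries are nearly empty, and Amy1 reaches 22.1 and 24.9 TPM only in IMOK replicates 2 and 3.

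The genes most like Amy1 over the 9 libraries, by Pearson correlation of log2(TPM + 1) among 12257 genes, were Sprr2j-ps (r = 0.970), Chia (r = 0.961) and Ly6c2 (r = 0.959). Chia had 11.3 and 12.7 TPM in IMOK replicates 2 and 3, 3.36 TPM at P4 and at most 0.856 TPM elsewhere. Those most like Xbp1 were Frmd8 (r = 0.929), Slc26a9 (r = 0.929) and Snx15 (r = 0.922). The 9 libraries include 1 line at several passages, so these points are not independent. The other 4 members were too weakly read for such a ranking.

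A list of 23 genes of endoplasmic reticulum capacity, taken as XBP1 targets, was tested in full. Whether XBP1 or another factor set their levels in these cells was not tested. Against IMOK, 3 were lower in mSGc and 0 higher, beside 8.31% of all genes called lower, and the median log2 fold change was -0.37, with 0.00 over all genes. The 3 were Creld2 (log2 fold change -1.39, SE 0.40, adjusted p = 0.0429 by edgeR), a disulfide-related chaperone, Hyou1 (-1.03, SE 0.31, adjusted p = 0.0490 by edgeR), a large chaperone, and Syvn1 (-0.93, SE 0.21, adjusted p = 0.0158 by edgeR), the ubiquitin ligase of endoplasmic reticulum degradation. Syvn1 had 15.3 to 27.8 TPM in mSGc and 38.5, 55.7 and 44.0 TPM in IMOK replicates 1 to 3. It was the 1 gene of the 23 whose groups did not overlap, as was so for 17.0% of all genes in this direction. Creld2 had 26.5 to 56.3 TPM in mSGc and 47.5, 209 and 157 TPM in IMOK, and Hyou1 had 56.4 to 84.4 TPM in mSGc and 76.95, 205 and 185 TPM in IMOK. For both, IMOK replicate 1 fell within the mSGc range.

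The most abundant targets also had their highest levels in IMOK replicates 2 and 3. Hspa5, the chaperone BiP, had 308 to 636 TPM in mSGc and 418, 1618 and 1315 TPM in IMOK replicates 1 to 3, with a log2 fold change of -1.03 (SE 0.39, adjusted p = 0.103 by edgeR). Hsp90b1, the chaperone GRP94, had 485 to 741 TPM in mSGc and 517, 2193 and 1669 TPM in IMOK, with -1.05 (SE 0.37, adjusted p = 0.0856 by edgeR). IMOK replicate 2 was the highest of the 9 libraries for 16 of the 23 targets and IMOK replicate 3 for 3, whereas IMOK replicate 1 was the highest for 0. Xbp1 itself was highest in IMOK replicate 2, at 95.8 TPM, and had 69.5 and 74.7 TPM in replicates 1 and 3. The next highest was P2 of mSGc, at 88.2 TPM. Its level did not follow that of Hspa5 throughout, since P2 had 502 TPM of Hspa5 and IMOK replicate 3 had 1315 TPM.

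The count of called targets depended on which IMOK library was used. It was 10 without IMOK replicate 1, where 14.7% of all genes were called in either direction. Without IMOK replicate 2 or without IMOK replicate 3 it was 0. The number of all genes called was 1919 with all libraries, 1919 without IMOK replicate 1, 739 without IMOK replicate 2 and 943 without IMOK replicate 3. Leaving out any mSGc library in turn gave 1, Syvn1, DESeq2 gave 6 and limma voom gave 1. DESeq2 also called more of all genes than edgeR did, as given in the last section. At P10 alone, 0 of 23 were called, beside 4.20% of all genes, with a median log2 fold change of -0.82. There 8 had an unadjusted p under 0.05 by edgeR, beside 24.9% of all genes. DESeq2 called 2 at P10, where it again called more of all genes than edgeR did. Without IMOK replicate 1 there were 15 by edgeR at P10, where 27.1% of all genes were called in either direction. Within mSGc, 0 were called for passage or medium, and 0 had an unadjusted p under 0.05 for either.

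**Figure D3:**
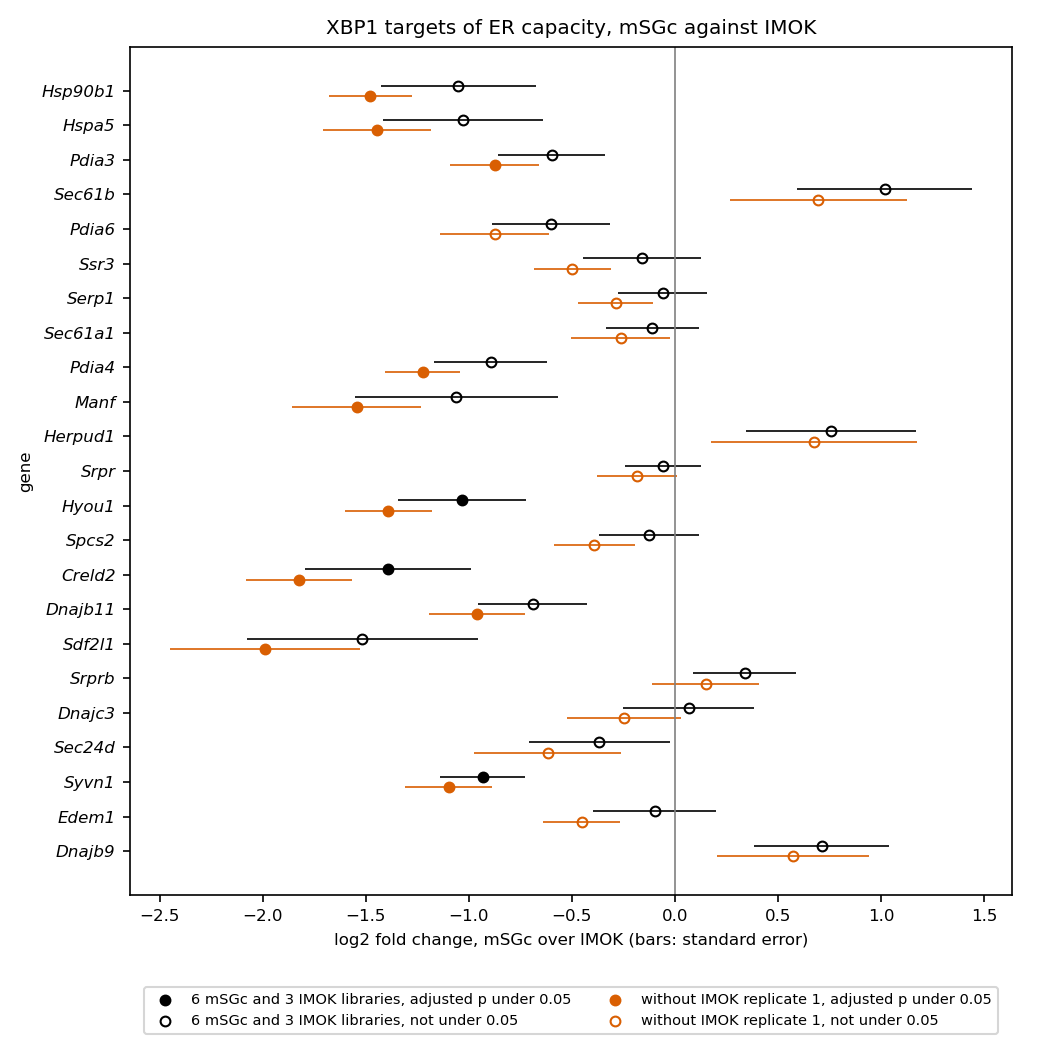
Points give the log2 fold change of each XBP1 target, all mSGc over IMOK, with bars of 1 standard error, for all 9 libraries (black) and without IMOK replicate 1 (orange). Filled points have an adjusted p under 0.05, 3 with all libraries and 10 without IMOK replicate 1, all on the negative side.

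Some of the targets hold a recognition sequence, the endoplasmic reticulum stress element, which is CCAAT, any 9 bases and CCACG. It was searched on both strands in the RefSeq promoters (GRCm38.p6, from 250 bases before to 50 after the start), in which 20 of the 23 targets had an entry, and found in 6 of them and in 0.137% of all 27025 genes. Because the 23 genes were listed as known XBP1 targets, a share above that of all genes is no independent support. The windows of 4 are shown, those of the most abundant targets and of the called targets that hold it, read along the gene's own strand with the fixed letters of the element in capitals.
Hspa5: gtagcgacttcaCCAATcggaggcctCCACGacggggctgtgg
Hsp90b1: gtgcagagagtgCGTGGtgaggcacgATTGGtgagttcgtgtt
Creld2: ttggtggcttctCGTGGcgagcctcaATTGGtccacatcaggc
Syvn1: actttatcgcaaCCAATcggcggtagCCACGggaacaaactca
These windows lie at chr2:34772013-34772055 (plus strand), chr10:86705521-86705563 (minus strand), chr15:88819508-88819550 (plus strand) and chr19:6046520-6046562 (plus strand), and in Hsp90b1 and Creld2 the element is on the opposite strand. Hyou1 had no entry. The element TGACGTGG, whose last letters are those of CCACG on the other strand, was found in 1 of the 20, Sec24d, and in 0.714% of all genes. Of the 6 acinar genes, 5 had a promoter in the table, all but Creb3l1. None of the 5 held either element, the amino acid response element TGATGCAA (1.03% of all genes) or the E-box CAGCTG (18.3% of all genes), each searched on both strands. A match describes letters only, and its absence says nothing of the factor.

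The sensors and the PERK branch of the unfolded protein response, the arm that slows translation, had their highest level in P10 in progenitor medium for 5 of the 11 genes read and in IMOK replicate 1 for 4, libraries in which 7.90% and 31.5% of all genes were highest. Of 12 genes, 11 were tested and 0 were called in any of the 4 comparisons. In the comparison of all mSGc with IMOK, Atf4 alone had an unadjusted p under 0.05 (0.0177, adjusted p = 0.0839 by edgeR), beside 30.4% of all genes. Atf4, the transcription factor of this arm, had 650 TPM at P10 in progenitor medium and 255 to 402 TPM in the other 8 libraries. Asns, asparagine synthetase, had 382 TPM there, 267 TPM in IMOK replicate 1 and 130 to 213 TPM elsewhere. Trib3, Ddit3 and Chac1, picked after their values were seen, were highest in P10 in progenitor medium and IMOK replicate 1, with 233 and 233.5 TPM for Trib3, 239 and 161 TPM for Ddit3 and 75.1 and 63.0 TPM for Chac1. Elsewhere these ranged from 16.6 to 40.1, from 12.5 to 72.7 and from 6.30 to 31.7 TPM. Ern2, the IRE1 form of mucous epithelia, had 0 counts in every library.

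**Figure D4:**
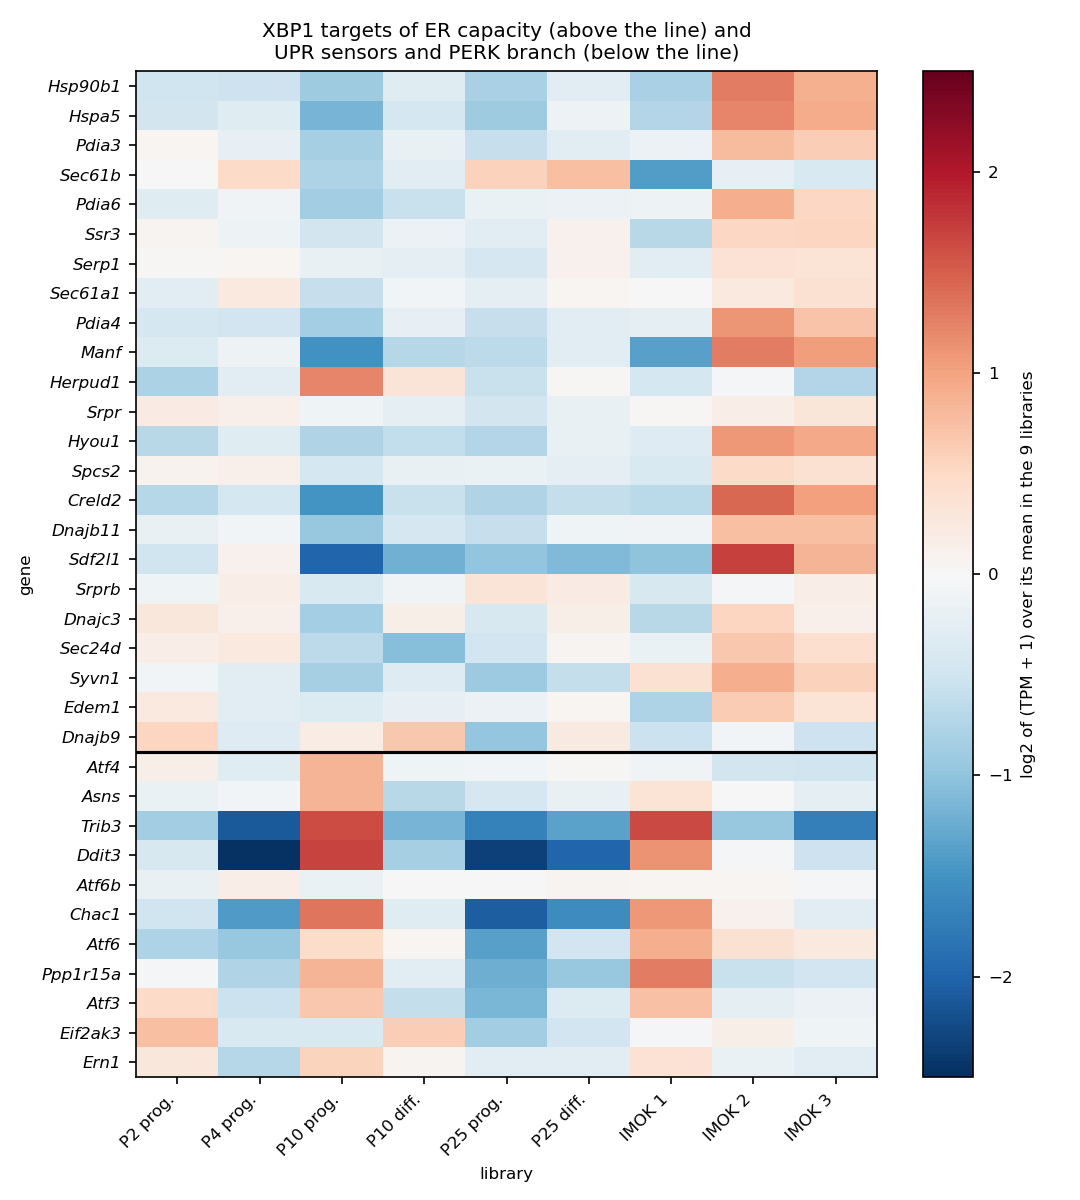
Colour gives the log2 of each level (TPM + 1) over its mean in the 9 libraries, by gene (rows) and library (columns), for the XBP1 targets above the line and the sensors and PERK branch below it. Most XBP1 targets are highest in IMOK replicates 2 and 3, while Trib3, Ddit3 and Chac1 are highest in P10 in progenitor medium and IMOK replicate 1.

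Relatives of Creb3l1 differed between the lines in opposite directions. Of 8 genes of the CREB3 family, its proteases and the coat protein SEC23A, 6 were tested against IMOK. In mSGc 2 were higher (6.58% of all genes were) and 1 lower (8.31% of all genes were). Creb3, the founding member of the family, had 101 TPM at P2 and 56.4 to 67.0 TPM in the other mSGc libraries, against 34.6, 26.7 and 25.3 TPM in IMOK. The groups did not overlap, as was so for 5.22% of all genes in this direction, and the log2 fold change was 1.44 (SE 0.21, adjusted p = 0.00229 by edgeR), called under all 15 alternatives. Sec23a, needed for transport vesicles out of the endoplasmic reticulum, was higher by 0.91 (SE 0.20, adjusted p = 0.0144 by edgeR) and was not called without IMOK replicate 2 (adjusted p = 0.0701) or 3 (adjusted p = 0.0664). Creb3l2 was lower by -1.34 (SE 0.33, adjusted p = 0.0237 by edgeR), with 3.51 to 11.7 TPM in mSGc and 30.4, 23.4 and 16.9 TPM in IMOK, and was not called without IMOK replicate 1 (adjusted p = 0.0647) or 2 (adjusted p = 0.0866). Mbtps1, the site-1 protease that cuts these factors, had 95.4 to 167 TPM in mSGc and 146 to 180 TPM in IMOK. At P10, 1 gene of the 6, Creb3, was higher (log2 fold change 1.22, SE 0.21, adjusted p = 0.0409 by edgeR, beside 2.34% of all genes), and it was not called without TMM factors, with no filter, or once either P10 library or IMOK replicate 2 or 3 was left out (adjusted p from 0.0526 to 0.216).

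The machinery that releases granules was expressed in both lines. Of 16 genes of granule docking and exocytosis, 13 were tested, and 1 was called lower in mSGc, beside 8.31% of all genes. It was Atp2c2, a calcium and manganese pump of the secretory pathway, with 0.880 to 3.72 TPM in mSGc and 12.3, 10.7 and 6.31 TPM in IMOK (log2 fold change -2.21, SE 0.50, adjusted p = 0.0165 by edgeR). The groups did not overlap, as was so for 17.0% of all genes in this direction, and without IMOK replicate 2 the adjusted p was 0.0723. It was lower at P10 as well, by -2.82 (SE 0.45, adjusted p = 0.0371 by edgeR, beside 1.87% of all genes), but not by limma voom, without either P10 library or without IMOK replicate 2 or 3 (adjusted p from 0.0610 to 0.172). Vamp8, the granule fusion protein of acinar cells, had the highest mean of the list, with 143 to 342 TPM in mSGc and 121 to 198 TPM in IMOK, and Stxbp2, its syntaxin-binding partner, had 53.0 to 95.4 and 75.4 to 130 TPM. Among genes picked after their values were seen, Rab26 and Gjb1 stayed at or below 0.659 and 0.0834 TPM, whereas Rab3d had 9.92 to 32.4 TPM. Whether any gene of the list depends on BHLHA15 was not tested.

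Genes linked to SPDEF in mucous cells were mostly near 0: of 18 genes, 5 were tested against IMOK. Of these 1, Gcnt3, a mucin glycosyltransferase, was called lower in mSGc, beside 8.31% of all genes. Gcnt3 had 0.0274 to 2.65 TPM in mSGc and 2.89, 9.17 and 8.50 TPM in IMOK (log2 fold change -3.14, SE 0.90, adjusted p = 0.0424 by edgeR). It lost the call when any of 6 libraries was left out (P2, P4, P10 in progenitor medium, P25 in differentiating medium, IMOK replicate 2 or IMOK replicate 3). At P10, Galnt12, another mucin glycosyltransferase, was the 1 gene lower of 6 tested (-3.23, SE 0.56, adjusted p = 0.0416 by edgeR, beside 1.87% of all genes), and it lost the call by limma voom, without TMM factors, without either P10 library and without IMOK replicate 2 or 3 (adjusted p from 0.0504 to 0.177). The ETS relatives Elf3 and Ehf had the highest means of the list. Elf3 had 117 TPM at P10 and 54.9 TPM at P25 in differentiating medium, and 7.30 to 24.0 TPM in the other 7 libraries. Ehf had 146 TPM at P10 in differentiating medium, where Spdef was highest, and 0.268 to 58.6 TPM elsewhere. Neither was called for medium. Of the 5 genes of the list tested for medium, 0 were called and 4 had an unadjusted p under 0.05 by edgeR, beside 8.17% of all genes. Of these 5 estimates 4 were positive and 1 negative, with a median log2 fold change of 2.96 beside -0.01 over all genes. Spdef did not pass the filter for medium, and Muc2, Muc5ac and Muc5b had at most 6 counts in any library. These estimates therefore do not cover Spdef or these mucins. Agr3, Tff1 and Tff3 had 0 counts in all 9 libraries.

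Around Lpo, the genes that supply hydrogen peroxide were better read than the peroxidases. Of 9 genes, 4 were tested against IMOK and 0 were called, and none had an unadjusted p under 0.05. Duox1, a hydrogen peroxide-making oxidase, had 3.23 to 20.7 TPM in mSGc and 22.5 to 26.8 TPM in IMOK, and Duoxa1, its maturation factor, had 26.9 to 67.8 and 65.8 to 78.4 TPM. The leukocyte peroxidases Mpo and Epx did not exceed 0.049 TPM in any library.

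Other markers of acinar cells differed in both directions. Of 14 genes, 6 were tested against IMOK, with 2 higher and 1 lower in mSGc, beside 6.58% and 8.31% of all genes. Aqp5, the water channel of the acinar apical membrane, had 1.40 to 21.0 TPM in mSGc and 213, 111 and 73.0 TPM in IMOK (log2 fold change -3.45, SE 0.69, adjusted p = 0.0101 by edgeR). Chrm3, the muscarinic receptor that drives salivation, had 6 to 247 counts in mSGc and 1, 1 and 2 counts in IMOK, and was higher in mSGc (adjusted p = 0.00684 by edgeR), though not by limma voom (adjusted p = 0.0965). Kcnn4, a potassium channel of fluid secretion, had 64.6 to 90.7 TPM in mSGc and 38.6 to 50.9 TPM in IMOK (1.01, SE 0.21, adjusted p = 0.0119 by edgeR). At P10, Chrm3 alone of the 6 was called, as higher in mSGc (adjusted p = 0.0146 by edgeR, beside 2.34% of all genes). It was not called once either P10 library or IMOK replicate 2 or 3 was left out. Sox10, a factor of salivary acinar progenitors, did not exceed 0.123 TPM, and the pancreatic factors Ptf1a and Nr5a2 had 0 counts.

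Markers of other cell types were set beside these values. The 3 basal markers Krt5, Krt14 and Trp63 summed to 7937 to 18550 TPM in mSGc and 7676 to 8407 TPM in IMOK. Of the 3, 1, Krt14, was called higher in mSGc, beside 6.58% of all genes (log2 fold change 1.27, SE 0.33, adjusted p = 0.0297 by edgeR). It was not called without P4 or any 1 IMOK replicate (adjusted p from 0.0501 to 0.121). The 9 ductal markers summed to 1787 to 13060 TPM in mSGc and 1792 to 3604 TPM in IMOK, mostly Krt7, Krt8 and Krt18, with 0 of 7 tested called. The 6 myoepithelial markers summed to 8.04 to 769 TPM in mSGc and to 961, 10.2 and 15.4 TPM in IMOK replicates 1 to 3. Of 4 tested, Mylk was called lower in mSGc, beside 8.31% of all genes (adjusted p = 0.0150 by edgeR, 0.0812 without IMOK replicate 1). Cnn1 was called falling with passage, beside 0.442% of all genes (21.2 TPM at P2, 1.51 TPM at P4 and 0 later, adjusted p = 0.0382 by edgeR, 0.434 by DESeq2). The 7 fibroblast markers summed to 0.320 to 22.6 TPM in mSGc and 1.30 to 6.41 TPM in IMOK, with 0 of 4 tested called. The 9 leukocyte markers summed to 2.998 to 6.98 TPM in mSGc and 34.5, 9.38 and 4.86 TPM in IMOK, led by Cd68 in every library (33.42, 8.75 and 4.58 TPM in IMOK and 1.88 to 4.10 TPM in mSGc). Cd68, the 1 gene of these tested, was called lower in mSGc, beside 8.31% of all genes (adjusted p = 0.0230 by edgeR, 0.131 without IMOK replicate 1). Cd3e was at 0 in all 9 libraries. The 4 endothelial markers summed to at most 0.945 TPM in any library. P4 and IMOK replicates 2 and 3, which held the salivary cargo, had leukocyte sums of 3.57, 9.38 and 4.86 TPM and fibroblast sums of 1.23, 1.30 and 1.35 TPM, and the part of any other cell type in the cargo was not tested.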

How the data were processed

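RNA had been extracted with Direct-zol and made into TruSeq RNA libraries. Per the labels and the submitters' processing notes, the authors used TopHat2 2.1.1, Bowtie2 2.2.6 and the mm9 build, and deposited raw gene counts from featureCounts 1.5.1. DESeq2 1.12.4 is also listed. The annotation, strand setting and handling of multiple matches are not given in the sources used here. Of 23366 entries, 4 with repeated names were left out. TPM was computed from counts and deposited gene lengths. Counts were fitted with edgeR 4.0.16 (TMM, filterByExpr, quasi-likelihood F test, Benjamini-Hochberg at 0.05) in R 4.3.3, and SE is the absolute log2 fold change over the square root of F. Other runs used DESeq2 1.42.0, limma 3.58.1 (voom), no TMM factors, no filter, other passage or medium designs, CPM in place of TPM, and each library left out. The pipeline was tested on simulated data. Members and lists were chosen with earlier results of these data known. Text genes were all members, per list those called (at most 3 per direction and comparison) and the 2 of highest mean TPM, and the 3 most correlated with a member. Python 3.11.15, pandas 2.3.3, numpy 2.4.6 and scipy 1.17.1 were used.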

Additional observations from a re-analysis of the deposited data

Results flagged for a closer look

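In 3 of the 6 genes, 1 of the 6 mSGc libraries lay far from the others by Dixon's criterion for 6 values (the gap to the nearest library over the whole range exceeds the 95% critical value). For Bhlha15 it was P4, at 0.478 TPM (15 counts, ratio 0.774). For Spdef it was P10 in differentiating medium, at 0.693 TPM (8 counts, ratio 0.736). For Lpo it was P4, at 0.609 TPM (16 counts, ratio 0.645). The mSGc libraries differ in passage and medium and are not replicates of 1 condition, and chance flags about 1 in 20 groups of replicates.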

How the results depend on the processing

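The number of members called stayed 0 in every alternative run except 1, so that it ranged from 0 to 1 when single libraries were left out. Without IMOK replicate 1 it was 1 (Amy1) in each comparison with IMOK, where 14.7% and, at P10, 27.1% of all genes were called. Few members could be called at all: in the fits reported, 2 of the 6 were tested against IMOK and 3 within mSGc. With no filter on low counts all 6 were tested and 0 were called. XBP1 targets called lower in all mSGc against IMOK, 3 in the fit reported, ranged from 0 to 10 with 1 library left out, and were 6 by DESeq2, 1 by limma voom, 10 without both P10 in progenitor medium and IMOK replicate 1, and 10 without both P4 and IMOK replicate 1. These 2 joint settings were added after seeing the data. At P10 the count, 0 in the fit reported, was 2 by DESeq2 and 0 to 15 with 1 library left out. Estimates of uncalled members changed sign 4 times with 1 library left out: Creb3l1 for passage was 0.59 without P25 in progenitor medium (range -0.25 to 0.59), Amy1 for medium was -4.99 without P10 in differentiating medium (range -4.99 to 2.79), and Xbp1 for medium was -0.074 without P10 in progenitor medium and -0.011 without P25 in differentiating medium (range -0.074 to 0.30). For the Amy1 value of -4.99, the only library left in differentiating medium had 0 counts. Library sizes without TMM factors shifted the median log2 fold change of all genes to -0.105 in all mSGc against IMOK and to -0.103 at P10. All genes called in all mSGc against IMOK numbered 1919, 3056 by DESeq2 and 739 without IMOK replicate 2, and at P10 they numbered 547, 2323 by DESeq2, 3414 without IMOK replicate 1 and 0 without either P10 library. Where an arm was left with 1 library, it was assumed to vary like the others. The causes were not tested. For passage all genes called numbered 61 (731 by DESeq2, 0 to 330 with 1 library left out), and for medium 3 (285 by DESeq2, 0 to 58 with 1 library left out). When the 4 libraries of P10 and P25 alone were compared between media within passage, 123 genes and 0 members were called. No paired analysis was possible because the groups share only replicate number 1, each mSGc condition being 1 library. Totals of 6237884 counts and up leave genes under 3 counts unresolved.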
